A study of Homo sapiens with 9 samples.

Results

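The genes described here are 10 inhibitors of ERK and related MAP kinase signalling, several of which are known to be induced by ERK activity, namely the phosphatases DUSP1, DUSP2, DUSP4, DUSP5, DUSP6 and DUSP10, the Sprouty genes SPRY2 and SPRY4, and the Sprouty-related genes SPRED1 and SPRED2. They were chosen by name, and each of the 10 symbols matched 1 Ensembl identifier among the 60664 genes of the deposited count table. All 10 passed the filter on low counts that left 17207 genes for testing, although DUSP2 did so through the 1-1 KO libraries alone. The mRNA was sequenced in 3 lines of Huh-7, a human hepatocellular carcinoma cell line, with 3 libraries each: cells with intact vault RNA genes (WT), a line without the VTRNA1-1 gene (1-1 KO) and a line without the VTRNA1-2 gene (1-2 KO). Vault RNAs are short noncoding RNAs made by RNA polymerase III. All lines were grown to near confluence in complete medium with serum, and no treatment was given, so that the values are levels of growing cells and not of cells stimulated with a growth factor. The study obtained WT and 1-1 KO cells from elsewhere, whereas it derived the 1-2 KO line from the WT cells with CRISPR/Cas9, as a clone grown from 1 cell. Each knockout was thus 1 line, and an effect of the lost gene cannot be told apart from a property of that line. RNA was extracted in triplicate from each line, so that the p-values measure the spread between extractions of the same line.

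The ERK cascade carries signals from receptors at the cell surface through RAS, RAF and MEK to the kinases ERK1 and ERK2, and active ERK induces transcription of genes that switch it off again. The dual-specificity phosphatases (DUSPs) remove phosphate from the kinases themselves, each with its own preference for ERK, p38 or JNK and its own place in the nucleus or cytoplasm. Sprouty and SPRED proteins act further up, between the receptors and RAF. Several of these mRNAs, DUSP6 and SPRY4 among them, follow ERK activity and are widely used as a readout of the pathway. ERK phosphorylation itself cannot be read from mRNA, and what the paper reported of it is given below.

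Each library held 32384469 to 41782387 counts. The vault RNAs themselves cannot be checked in these mRNA libraries, in which VTRNA1-2 had 0 counts throughout and VTRNA1-1 had at most 1. All 8 hepatocyte markers examined were expressed in every line, and their summed level was between 12457 and 13234 counts per 1000000 (CPM) in the WT libraries, 27754 to 28654 CPM in 1-1 KO and 19110 to 20932 CPM in 1-2 KO. Of these markers, 7 were called higher and 0 lower in 1-1 KO, and 4 higher and 2 lower in 1-2 KO. Of all tested genes, 63.4% were called in 1-1 KO and 54.4% in 1-2 KO. In 1-2 KO AFP rose 4.22-fold and ALB 1.87-fold, while TTR fell 1.56-fold and TF 1.17-fold. Of 8 markers of other cell types, the endothelial CDH5 and the lymphocyte genes CD3E and CD79A had at most 7 counts in any library. The other 5 were tested, and 3 were called higher and 0 lower in 1-1 KO, and 3 higher and 1 lower in 1-2 KO. EPCAM, an epithelial adhesion gene, rose in 1-1 KO from 35.5 ± 0.718 to 103.7 ± 0.869 CPM (SD, n = 3) and was at 34.7 ± 0.940 CPM in 1-2 KO. The endothelial PECAM1 fell 9.02-fold in 1-2 KO, from 7.57 ± 0.309 to 0.839 ± 0.136 CPM. The pericyte gene PDGFRB rose from 1.77 ± 0.405 CPM in WT to 5.45 ± 0.211 CPM in 1-1 KO (3.05-fold) and 6.53 ± 0.300 CPM in 1-2 KO (3.66-fold). The leukocyte gene PTPRC, with at most 47 counts in any library, rose 3.31-fold in 1-1 KO and was 6.30-fold above WT in 1-2 KO, and the fibroblast gene COL1A1 rose 1.17-fold in 1-2 KO. Because these moved in both directions, the summed level of the 8 markers, at 55.6 to 57.7 CPM in WT, 127 CPM in each 1-1 KO library and 56.3 to 56.9 CPM in 1-2 KO, hides the changes in 1-2 KO. The part of these shifts in the results below was not tested. Counts of 1-2 KO replicate 1 differed more from the other 1-2 KO libraries (chi-square per degree of freedom 15.1 and 16.1) than those differed from each other (2.67). Between WT libraries the value was 5.03 to 10.4, highest for replicates 1 and 3, and between 1-1 KO libraries 2.07 to 3.46.

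The 10 genes did not move as a block. In 1-1 KO compared to WT, DUSP4 and SPRY2 rose 2.00-fold each and DUSP5 rose 1.51-fold, while SPRED1 fell 1.5-fold and DUSP6 and SPRY4 did not pass the test. In 1-2 KO compared to WT, DUSP6 fell 1.75-fold, DUSP5 1.55-fold and DUSP4 1.36-fold, whereas DUSP1 rose 1.39-fold. A gene was called changed at an adjusted p under 0.05 in edgeR's quasi-likelihood test. By this rule 6 genes were higher and 2 lower in 1-1 KO, where 63.4% of all tested genes were called, 32.5% higher and 30.9% lower. In 1-2 KO, 4 were higher and 3 lower, against 54.4% of all tested genes, 28.2% higher and 26.2% lower. Between the knockouts 9 of the 10 differed, 3 higher and 6 lower in 1-2 KO, against 65.3% of all tested genes, 33.1% higher and 32.2% lower. DUSP2 was admitted to the test only through the line in which it was high, so that its calls carry no weight. Leaving it out, the numbers for the other 9 were 5 higher and 2 lower in 1-1 KO, 3 and 3 in 1-2 KO, and 3 and 5 between the knockouts. With calls this common across the transcriptome, the number of members called says little, and their sizes and directions are given one by one. These are bulk levels, in which fewer cells of a kind and less RNA per cell cannot be told apart. The paper's blots, made after a brief starvation, showed more phosphorylated ERK in 1-2 KO than in WT. The WT level returned when the lost gene was put back. For 1-1 KO the paper refers to a comparable pattern seen earlier. In 1-2 KO it found the phosphorylation of RAF and MEK unaltered, and that of the RSK kinase downstream of ERK raised. From the same mRNA data, the paper described genes of the MAPK/ERK pathway as dysregulated in both knockouts, with different genes in each. The relation of ERK phosphorylation to the mRNA levels was not tested. A lower level of a member is therefore not read here as lower ERK activity.

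**Figure D1:**
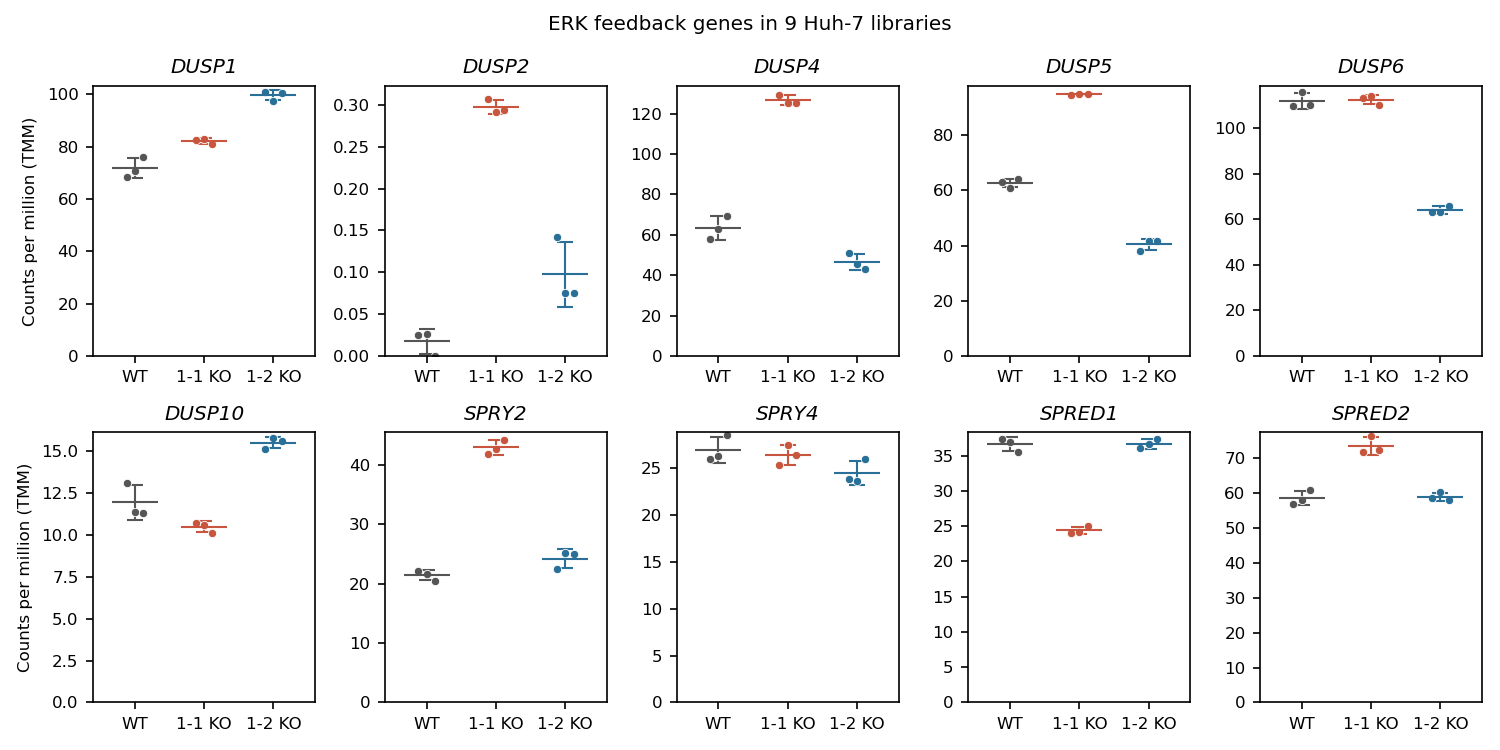
Level of each of the 10 genes in CPM with TMM-normalized library sizes (y axis, from 0, with its own scale in each panel) in the 3 libraries of each line (x axis). Points are libraries, the wide line is the mean and the whiskers are the SD. DUSP4 and SPRY2 stand highest in 1-1 KO, DUSP6 lowest in 1-2 KO, SPRED1 lowest in 1-1 KO, and SPRY4 lies between 23.6 and 28.5 CPM throughout.

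For 3 genes with different courses over the lines, the 250 bases before the transcription start are shown, as RefSeq places it on GRCh38.p14, each read 5′ to 3′ on the minus strand, on which all 3 genes lie. The first is DUSP1 (chr5:172771196-172771445), which rose in both knockouts, the next is DUSP6 (chr12:89352502-89352751), which fell in 1-2 KO only among the comparisons with WT, and the last is SPRY2 (chr13:80341127-80341376, the most upstream of its 3 listed starts), which rose 2.00-fold in 1-1 KO. Capitals mark the letters of motifs that were searched on both strands.
DUSP1: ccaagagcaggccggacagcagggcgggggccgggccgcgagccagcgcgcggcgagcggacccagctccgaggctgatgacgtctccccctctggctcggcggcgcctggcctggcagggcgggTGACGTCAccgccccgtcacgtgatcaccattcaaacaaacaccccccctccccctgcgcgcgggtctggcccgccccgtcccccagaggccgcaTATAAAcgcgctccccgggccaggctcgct
DUSP6: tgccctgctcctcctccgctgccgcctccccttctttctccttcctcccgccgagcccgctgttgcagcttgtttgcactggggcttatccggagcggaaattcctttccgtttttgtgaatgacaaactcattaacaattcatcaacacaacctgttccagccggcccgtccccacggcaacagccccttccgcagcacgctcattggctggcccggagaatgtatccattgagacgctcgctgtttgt
SPRY2: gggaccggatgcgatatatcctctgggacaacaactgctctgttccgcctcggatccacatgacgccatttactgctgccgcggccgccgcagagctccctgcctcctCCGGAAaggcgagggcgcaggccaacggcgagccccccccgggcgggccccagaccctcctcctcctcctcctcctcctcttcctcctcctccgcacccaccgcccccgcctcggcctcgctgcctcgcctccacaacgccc
In DUSP1 the capitals are a cAMP response element (CRE, TGACGTCA, the same on both strands), which begins 125 bases before the start, and a TATA box (TATAAA) at 30 bases before it. In SPRY2 they are the core of an ETS factor site (CCGGAA) at 142 bases before the start. Of 35116 promoters of 300 bases listed by RefSeq, 1.85% held the CRE, 11.5% the TATA box and 17.2% the ETS core. The CArG box bound by SRF (in 1.29% of promoters) and the CIC repressor sites TGAATGAA (1.65%) and TGAATGGA (1.03%) had no match in the 12 windows listed for 8 of the 10 genes. DUSP4 and DUSP5 had no entry. Among these windows, the other match was a TATA box 31 bases before a second start of SPRED2. A match of letters shows neither binding nor a cause.

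DUSP1, a nuclear phosphatase that acts on p38 and JNK as well as ERK, was the highest member per exon length in every line and rose in both knockouts. Its level was 68.4, 70.8 and 75.9 CPM in the WT libraries, 82.5, 83.1 and 81.0 CPM in 1-1 KO, and 101, 97.4 and 101 CPM in 1-2 KO. The lines did not overlap, with WT lowest and 1-2 KO highest. The log2 fold change, with its standard error (SE), was 0.20 in 1-1 KO (SE 0.04, adjusted p = 6.42e-04 in edgeR) and 0.48 in 1-2 KO (SE 0.04, adjusted p = 1.96e-07 in edgeR). Its level was 1.21-fold higher in 1-2 KO than in 1-1 KO (adjusted p = 2.58e-05 in edgeR). This direct difference was smaller than that of the genes around DUSP1, whose median was 0.40 on the log2 scale, and relative to them DUSP1 was 0.13 lower in 1-2 KO (adjusted p = 0.0130 in edgeR). Here and below, such a p-value takes the median of the neighbours as a fixed number. The spread among the neighbours does not enter it.

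DUSP4 and DUSP5, phosphatases of the nucleus, of which DUSP5 is specific for ERK, went up in 1-1 KO and down in 1-2 KO. DUSP4 was at 57.8, 62.8 and 69.5 CPM in WT, at 129, 125 and 125 CPM in 1-1 KO and at 51.1, 45.6 and 43.1 CPM in 1-2 KO. Every 1-1 KO library was above, and every 1-2 KO library below, all WT libraries. The log2 fold change of DUSP4 was 1.00 in 1-1 KO (SE 0.06, adjusted p = 8.42e-09 in edgeR) and -0.44 in 1-2 KO (SE 0.07, adjusted p = 5.94e-05 in edgeR). DUSP5 was at 63.1, 61.0 and 64.0 CPM in WT, at 94.5, 94.9 and 94.9 CPM in 1-1 KO and at 38.2, 41.6 and 41.8 CPM in 1-2 KO, again without overlap between the lines. Its log2 fold change was 0.60 in 1-1 KO (adjusted p = 1.40e-08 in edgeR) and -0.63 in 1-2 KO (adjusted p = 1.48e-08 in edgeR), each with an SE of 0.04. Compared directly, DUSP4 was 2.72-fold and DUSP5 2.34-fold lower in 1-2 KO than in 1-1 KO (adjusted p = 1.58e-10 and 7.38e-12 in edgeR), the largest differences between the knockouts among the members apart from DUSP2.

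DUSP2, a nuclear phosphatase best known from lymphocytes, was barely detected. It had 1, 1 and 0 counts in the WT libraries, 13, 12 and 12 counts in 1-1 KO and 6, 3 and 3 counts in 1-2 KO. The counts of 1-1 KO lay apart from those of the other lines. With 2 counts in WT in all, the ratio of 1-1 KO to WT was 16.2 with an exact 95% interval from 4.18 to 139, and that of 1-2 KO to WT was 5.35 with an interval from 1.19 to 49.2, both for counting error only. Since DUSP2 passed the filter on low counts only through 1-1 KO, where it was highest, its calls are counted above but no p-value is given for them. In 1-2 KO, 6 of the 12 counts came from replicate 1, and the call was lost without that library and in DESeq2.

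DUSP6 encodes a cytoplasmic phosphatase with a strong preference for ERK. Among the comparisons with WT it was called only in 1-2 KO. It was at 109, 116 and 110.2 CPM in WT, at 113, 114 and 110.0 CPM in 1-1 KO, and at 63.0, 63.2 and 66.0 CPM in 1-2 KO. The WT and 1-1 KO libraries overlapped, and all 1-2 KO libraries lay far below them. The log2 fold change was 0.0080 in 1-1 KO, with a 95% interval from -0.07 to 0.09 (adjusted p = 0.860 in edgeR), which leaves room for only a small change in either direction. In 1-2 KO it was -0.80 (SE 0.04, adjusted p = 3.03e-10 in edgeR), and 1-2 KO was 1.76-fold below 1-1 KO (adjusted p = 1.50e-10 in edgeR).

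DUSP10, which acts on p38 and JNK rather than on ERK, ran opposite to DUSP4 and DUSP5. It was at 13.1, 11.4 and 11.3 CPM in WT, at 10.7, 10.6 and 10.1 CPM in 1-1 KO and at 15.1, 15.7 and 15.6 CPM in 1-2 KO. The 1-2 KO libraries were the highest and the 1-1 KO libraries the lowest, with a narrow gap between 1-1 KO and WT. It rose 1.30-fold in 1-2 KO (log2 fold change 0.37, SE 0.07, adjusted p = 4.02e-04 in edgeR) and was 1.48-fold higher there than in 1-1 KO (adjusted p = 6.13e-06 in edgeR). The lower level in 1-1 KO (log2 fold change -0.19, SE 0.07, adjusted p = 0.0316 in edgeR) was not a firm call. It was lost in DESeq2 (adjusted p = 0.0578), with scaling by library size alone (0.100) and without WT replicate 1 (0.176) or any of the 1-1 KO libraries (0.0532 to 0.103), and relative to the neighbouring genes it turned to 0.06.

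SPRY2, a Sprouty protein that holds back signalling from growth factor receptors to RAS and RAF, rose in 1-1 KO. It was at 22.2, 21.6 and 20.5 CPM in WT, at 41.8, 42.7 and 44.2 CPM in 1-1 KO and at 22.4, 25.2 and 25.03 CPM in 1-2 KO. The 1-1 KO libraries lay far above the others, while the lowest 1-2 KO library was just above the highest WT library. In 1-1 KO the log2 fold change was 1.00 (SE 0.06, adjusted p = 1.96e-09 in edgeR). In 1-2 KO it was 0.18 (SE 0.06, adjusted p = 0.0181 in edgeR), a call that was lost without 1-2 KO replicate 2 (adjusted p = 0.0697), 1-2 KO replicate 3 (0.0652) or WT replicate 3 (0.0887), and relative to the neighbouring genes (0.301). Compared directly, SPRY2 was 1.77-fold lower in 1-2 KO than in 1-1 KO (adjusted p = 9.02e-09 in edgeR).

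SPRY4, its relative with a like role, was the steadiest of the 10. It was at 26.0, 26.2 and 28.5 CPM in WT, at 25.3, 27.4 and 26.4 CPM in 1-1 KO and at 23.8, 23.6 and 25.9 CPM in 1-2 KO. WT and 1-1 KO overlapped, and the 1-2 KO libraries lay just under those of WT. The log2 fold change was -0.03 in 1-1 KO (95% interval from -0.15 to 0.10, adjusted p = 0.688 in edgeR) and -0.14 in 1-2 KO (95% interval from -0.26 to -0.01, adjusted p = 0.0611 in edgeR). The latter passed without 1-2 KO replicate 3 (adjusted p = 0.0286) and with DESeq2's size factors (0.0446). Between the knockouts it was -0.11 (95% interval from -0.23 to 0.02, adjusted p = 0.115 in edgeR), which passed without WT replicate 3 (0.0435). SPRY4 lies on chromosome 5, 1.59 Mb from VTRNA1-2, and the 50 nearest tested genes had a median log2 fold change of 0.39 in 1-2 KO. Relative to these neighbours SPRY4 was lower by 0.53 on the log2 scale in 1-2 KO (adjusted p = 3.61e-06 in edgeR) and, in the direct comparison, 0.51 below 1-1 KO (adjusted p = 3.47e-06 in edgeR). These p-values leave out the spread among the neighbours. The part of such regional shifts in the level of SPRY4 was not tested further.

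SPRED1 and SPRED2, membrane-bound relatives of the Sprouty proteins that bring the RAS inhibitor neurofibromin to the membrane, changed in 1-1 KO in opposite directions. SPRED1 was at 37.4, 37.0 and 35.5 CPM in WT, at 24.1, 24.1 and 25.003 CPM in 1-1 KO and at 36.0, 36.6 and 37.4 CPM in 1-2 KO. WT and 1-2 KO overlapped, with 1-1 KO well below both. It fell by 0.59 on the log2 scale in 1-1 KO (SE 0.04, adjusted p = 5.15e-08 in edgeR). SPRED2 was at 56.9, 58.2 and 60.8 CPM in WT, at 71.7, 76.4 and 72.4 CPM in 1-1 KO and at 58.7, 60.3 and 58.2 CPM in 1-2 KO. Its 1-1 KO libraries were all above the others, with a log2 fold change of 0.33 (SE 0.04, adjusted p = 6.09e-06 in edgeR). In 1-2 KO the log2 fold changes were 0.0023 for SPRED1 (95% interval from -0.09 to 0.10, adjusted p = 0.971 in edgeR) and 0.01 for SPRED2 (from -0.08 to 0.10, adjusted p = 0.838). Between the knockouts, SPRED1 was 1.5-fold higher and SPRED2 1.25-fold lower in 1-2 KO (adjusted p = 3.75e-08 and 7.28e-06 in edgeR).

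**Figure D2:**
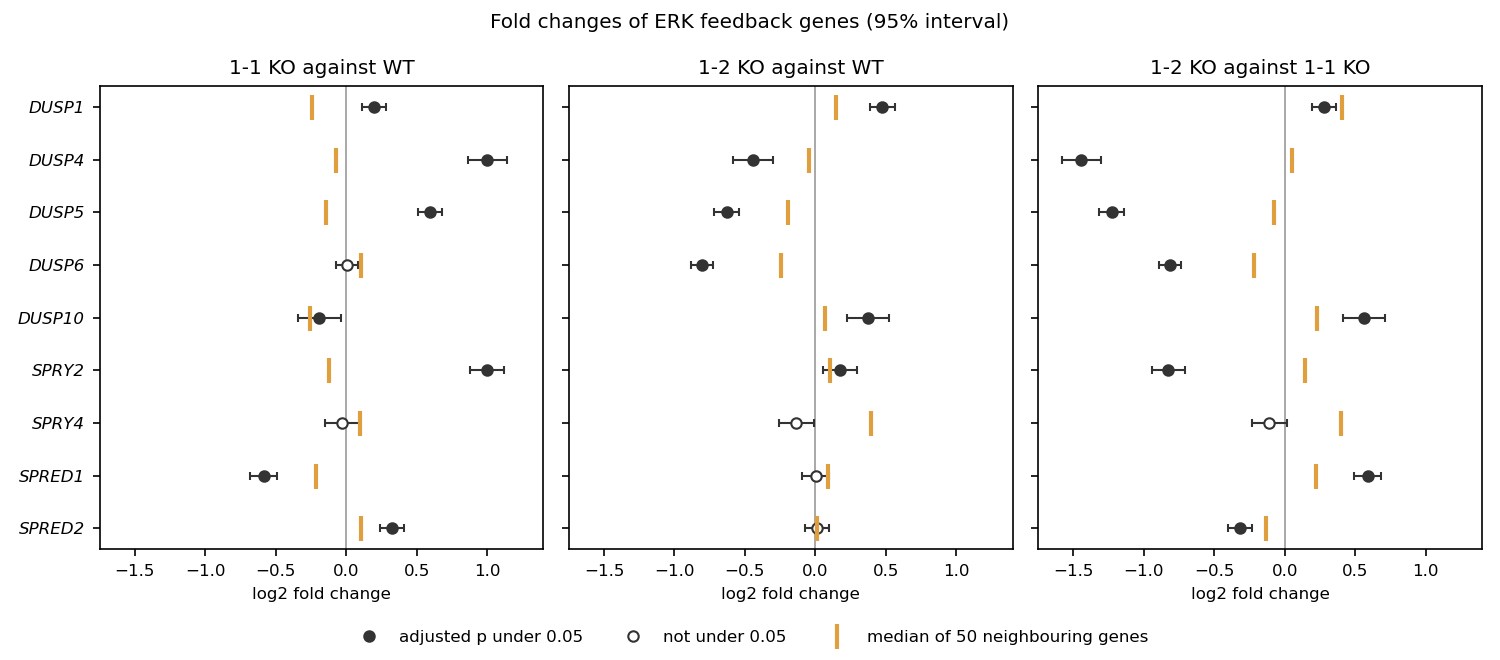
Log2 fold change (x axis) of the 9 members other than DUSP2 in each comparison, with its 95% interval from edgeR's fit. Filled points have an adjusted p under 0.05, and bars mark the median change of the 50 nearest tested genes on the chromosome. In the right panel DUSP4, DUSP5, DUSP6, SPRY2 and SPRED2 lie left of 0, and in the middle panel SPRY4 lies at -0.14 beside neighbours at 0.39.

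By direction of the calls, the members fell into 7 patterns over the comparisons with WT, which share the WT libraries. DUSP1 and SPRY2 were higher in both knockouts, as was DUSP2 by its few counts, and the calls of SPRY2 and DUSP2 in 1-2 KO were lost under other settings as given above. DUSP4 and DUSP5 were higher in 1-1 KO and lower in 1-2 KO. DUSP10 was the reverse of these. SPRED2 was higher and SPRED1 lower in 1-1 KO alone by the calls, DUSP6 was lower in 1-2 KO alone, and SPRY4 was called in neither. In the direct comparison, which the other tests do not replace, each of these but SPRY4 differed between the knockouts, with DUSP2 read only by its counts.

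Levels were compared between genes per kb of exon. In WT the order was DUSP1 (35.6 ± 1.91 CPM per kb), DUSP6 (29.0 ± 0.887), DUSP5 (24.7 ± 0.609), SPRED2 (10.6 ± 0.368), DUSP4 (8.71 ± 0.803), SPRY2 (6.67 ± 0.260), SPRED1 (4.72 ± 0.126), DUSP10 (4.22 ± 0.364), SPRY4 (4.11 ± 0.214) and DUSP2 (0.0090 ± 0.0078; SD, n = 3 throughout). The libraries of SPRED1 and DUSP10, and those of DUSP10 and SPRY4, overlapped, and the other neighbours in the order did not. In 1-1 KO the second place passed to DUSP5 (37.4 ± 0.0930 CPM per kb), followed by DUSP6 (29.1 ± 0.555), and SPRY2 (13.4 ± 0.382) reached SPRED2 (13.4 ± 0.464), with overlapping libraries. In 1-2 KO DUSP1 stood apart at 49.5 ± 0.948 CPM per kb, above DUSP6 (16.6 ± 0.435) and DUSP5 (16.0 ± 0.802), which overlapped. The exon lengths join all annotated exons of a gene, so that a gene with long, rarely used exons appears lower than it is.

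**Figure D3:**
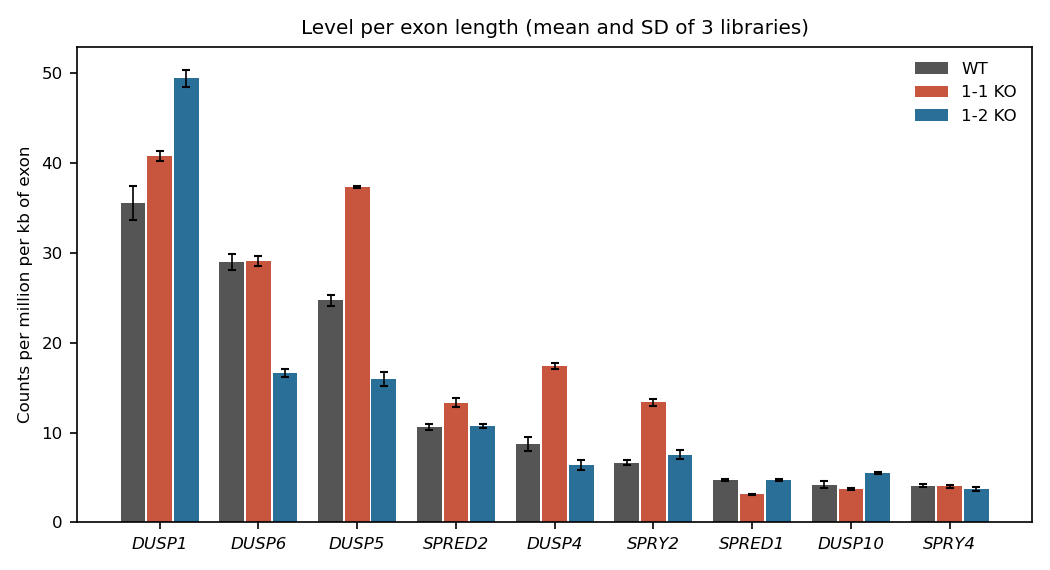
Level per exon length (y axis, CPM per kb of exon, from 0) of the 9 members other than DUSP2, in the order of WT. Bars are means and whiskers SD of 3 libraries per line. DUSP1 is the highest bar in each line, and in 1-2 KO it stands at 49.5 against 16.6 for DUSP6.

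The members lie on 8 different chromosomes, and all but DUSP5 and SPRED1 are on the minus strand. In GRCh38 coordinates, chromosome 5 holds DUSP1 (ENSG00000120129, 172768096 to 172771195) and SPRY4 (ENSG00000187678, 142310427 to 142326455), and chromosome 2 holds DUSP2 (ENSG00000158050, 96143169 to 96145440) and SPRED2 (ENSG00000198369, 65310851 to 65432637). DUSP4 (ENSG00000120875) lies on chromosome 8 from 29333064 to 29350684, DUSP5 (ENSG00000138166) on chromosome 10 from 110497907 to 110511533, DUSP6 (ENSG00000139318) on chromosome 12 from 89347235 to 89352501, and DUSP10 (ENSG00000143507) on chromosome 1 from 221701424 to 221742089. SPRY2 (ENSG00000136158) lies on chromosome 13 from 80335976 to 80341126, and SPRED1 (ENSG00000166068) on chromosome 15 from 38252836 to 38357249. DUSP1 is 32 Mb from VTRNA1-2. The fold changes of DUSP4, DUSP5 and SPRY2 in 1-1 KO, and of DUSP4, DUSP5 and DUSP6 in 1-2 KO, were all further from 0 than those of the genes around them, whose medians ranged from -0.14 to -0.07 in 1-1 KO and from -0.25 to -0.05 in 1-2 KO (log2). After the median of the neighbours was subtracted, each of these 6 changes kept its call, from 0.74 for DUSP5 to 1.12 for SPRY2 in 1-1 KO and from -0.56 for DUSP6 to -0.39 for DUSP4 in 1-2 KO. An antisense RNA overlaps SPRY4 with between 34 and 68 counts per library, against 900 to 1128 for SPRY4, and those over DUSP1 and DUSP6 had at most 27. The use of strand in counting is not given in the sources used here, so that a share of this size could be misassigned.

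The remaining genes of the same families were examined in the same way. Of 7 other MAPK phosphatase, Sprouty and SPRED genes, 6 were tested, and 3 were higher and 0 lower in 1-1 KO, and 1 higher and 1 lower in 1-2 KO. These are 50% and 33.3% of the 6, below the 63.4% and 54.4% called among all tested genes. SPRY1, a further Sprouty inhibitor, rose 1.73-fold in 1-1 KO (adjusted p = 2.18e-08 in edgeR) and was 1.83-fold lower in 1-2 KO than in 1-1 KO (adjusted p = 6.01e-09). DUSP9, an ERK phosphatase related to DUSP6, rose 1.19-fold in 1-1 KO. DUSP16, which acts on JNK and p38, took opposite directions in the knockouts, as DUSP4 and DUSP5 did. Its 1-1 KO level exceeded WT by a factor of 1.20 (adjusted p = 1.85e-05 in edgeR), a call lost relative to the neighbouring genes (adjusted p = 0.932). In 1-2 KO it was 1.17-fold under WT, and the direct difference between the knockouts was 1.41-fold (adjusted p = 2.56e-08 in edgeR). DUSP7, the other relative of DUSP6, rose 1.42-fold in 1-2 KO (adjusted p = 2.04e-05 in edgeR), where DUSP6 fell.

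Other genes whose transcription is known to follow ERK activity were set beside the members, 23 in all with 20 tested. Among these the median of the log2 fold changes was 0.28 in 1-1 KO (10 higher, 4 lower), -0.11 in 1-2 KO (7 higher, 8 lower) and -0.56 between the knockouts (4 higher and 14 lower in 1-2 KO). The calls covered 70%, 75% and 90% of the 20, against 63.4%, 54.4% and 65.3% of all tested genes. For the 10 members the medians were 0.26, 0.0066 and -0.56, or 0.20, 0.0023 and -0.32 without DUSP2, and over all tested genes they were 0.01, 0.02 and 0.01. In 1-1 KO, ETV1, an ETS transcription factor, rose 5.08-fold, FOSB, an AP-1 subunit, 3.14-fold and CCND1, cyclin D1, 1.70-fold, while EMP1, a membrane protein, fell 5.05-fold. In 1-2 KO, ETV1 rose 2.62-fold, whereas PHLDA1, a pleckstrin-homology protein induced by growth factors, fell 1.80-fold, EREG, the EGF-like ligand epiregulin, 1.91-fold and EPHA2, an ephrin receptor, 1.53-fold. Each had an adjusted p of 8.44e-07 or lower in edgeR. The list thus held large changes in both directions in each knockout.

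Upstream of the members, all 30 receptors, adaptors and kinases of the cascade were tested. In 1-1 KO 14 were higher and 12 lower, with a median log2 fold change of 0.12, or 0.06 with FGFR2, which had 0 counts in every WT library, at its lower bound. In 1-2 KO 9 were higher and 14 lower, with a median of -0.11. The calls covered 86.7% of the list in 1-1 KO and 76.7% in 1-2 KO, against 63.4% and 54.4% of all tested genes. EGFR, the receptor for EGF and epiregulin, fell 1.73-fold in 1-2 KO and NRAS 1.61-fold, while 9 genes of the list were higher there. In 1-1 KO EGFR was 1.58-fold and NRAS 1.13-fold higher than in WT. The relation of these levels to those of the members was not tested. IGF1R fell in 1-1 KO (2.19-fold) and in 1-2 KO (1.70-fold). In 1-1 KO ERBB2 rose 1.83-fold and the adaptor SHC1 fell 2.40-fold. FGFR2 was at 11.6 ± 0.364 CPM in 1-2 KO, at least 139-fold higher than in WT with each WT library set to 3 counts. It passed the filter on low counts only through 1-2 KO, so that its call there, among the 9 higher, carries no weight. Among 10 further inhibitors of receptor and RAS signalling, 2 were higher and 3 lower in 1-1 KO (median -0.02), and 3 higher and 3 lower in 1-2 KO (median 0.13). That is 50% and 60% of them, against 63.4% and 54.4% of all tested genes. ERRFI1, an ERK-induced inhibitor of EGFR, fell 1.76-fold in 1-2 KO (adjusted p = 6.06e-11 in edgeR). In 1-1 KO ERRFI1 was 1.13-fold lower, a call lost relative to the neighbouring genes (adjusted p = 0.929 in edgeR). NF1, the neurofibromin that SPRED proteins recruit, rose 1.26-fold and CBL, a ubiquitin ligase that binds Sprouty proteins, 1.29-fold in 1-2 KO, while its relative CBLB fell 1.55-fold there.

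Of all tested genes, those with the profile nearest to DUSP6 over the means of the 3 lines were IGSF1, DGKG and IL6R, at Euclidean distances of 0.02 to 0.03 on the log2 scale. For SPRY2 they were H2AC25, RAB2B and ST3GAL5, at distances of 0.01 to 0.03. The likeness was taken over 17206 genes and rests on only 3 values per gene.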

How the data were processed

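Read counts per Ensembl gene were deposited without normalization. According to the methods, the authors prepared TruSeq stranded mRNA libraries, ran STAR on the read pairs against hg38 (annotation version 104), and used featureCounts to count them. Tool versions, the strand setting and the handling of reads with several matches are not given in the sources used here. The files' build and the annotation used here (GENCODE 44) are both GRCh38.

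The counts were analysed in R 4.3.3 with edgeR 4.0.16 (filterByExpr at its thresholds of 10 counts and a total of 15, TMM, 1 quasi-likelihood fit of all 9 libraries with a term per line) and summarised with scipy 1.17.1, numpy 2.4.6 and pandas 2.3.3 under Python 3.11.15. The Benjamini-Hochberg adjustment of p-values ran over the 17207 tested genes. Standard errors are the log2 fold change over the root of its F statistic, and intervals use the t distribution of the fit. The total of 32384469 to 41782387 counts per library sets the counting precision, and no library of a line at the floor had more than 3 counts of the gene. edgeR estimated a biological coefficient of variation of 5.55%. The fit was also run on simulated counts in which few genes changed, in 1-1 KO only, whereas most genes were called in the data. That run therefore does not test the fit under the conditions of these data.

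Alternatives were DESeq2 1.42.0, its size factors in edgeR, library size alone, no filter, at least 10 counts in every library, fits of only the 2 lines compared, a term for the replicate number, subtraction of the median of the 50 nearest tested genes (25 on each side), an adjusted p under 0.01, and leaving out each library. The median of the neighbours was subtracted as a fixed number, without the spread among them. Members and lists were chosen with earlier results of these data known. Named are all members, any gene of a list of up to 10, and from longer lists some of the 4 with the smallest adjusted p per knockout. For DUSP6, SPRY2 and SPRY4 the 3 nearest profiles were searched, and those of SPRY4, which hardly varied, are not described. Protein sequences were not used here.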

Additional observations from a re-analysis of the deposited data

Results flagged for a closer look

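DUSP4, DUSP5 and DUSP10 are listed because their calls against WT went in opposite directions in the knockouts and the direct test of the difference passed. How many of all tested genes meet this rule was not counted. Since 63.4% of all tested genes were called in 1-1 KO and 54.4% in 1-2 KO, the listing is not a result about the members. Outside the members, DUSP16, EGFR, NRAS and MAPK9 are among the genes that meet the same rule, so that it is not particular to the members. The difference of 1-2 KO from 1-1 KO was -1.44 on the log2 scale for DUSP4, -1.23 for DUSP5 and 0.56 for DUSP10 (adjusted p = 1.58e-10, 7.38e-12 and 6.13e-06 in edgeR), with every 1-2 KO library on the same side of every 1-1 KO library. For DUSP10 the comparison of 1-1 KO with WT was not a firm call.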

How the results depend on the processing

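Of 536 member values under the alternatives, 490 kept their direction and their side of the threshold, 18 lost the call, 5 gained it and 23 changed sign. Some alternatives could hardly move a value, so that the 490 overstate how robust the results are. Leaving out a library of the line not compared barely alters a fold change, and the threshold of 0.01 reuses the same fold change. All but 2 of the sign changes were of values that had not passed in the first place. The exceptions were DUSP10 in 1-1 KO (0.0645) and DUSP1 between the knockouts (-0.13), both with the neighbours' median subtracted. That subtraction also gave -0.10 for DUSP6 in 1-1 KO (adjusted p = 0.0270 in edgeR), and -0.0838 for SPRED1 and -0.00181 for SPRED2 in 1-2 KO. Near 0, DUSP6 in 1-1 KO was -0.00762 in DESeq2, -0.00778 without a filter and -0.00353 with DESeq2's size factors, and SPRY4 in 1-1 KO was 0.0221 with library size alone. SPRED1 in 1-2 KO was -0.0103 in DESeq2, -0.0121 without a filter, -0.00675 with DESeq2's size factors and -0.00829 with only the 2 lines compared, and SPRED2 was -0.000790 in DESeq2 and -0.00255 without a filter.

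Leaving out each library gave log2 fold changes from -0.00919 to 0.0319 for DUSP6 and from -0.0568 to 0.0167 for SPRY4 in 1-1 KO, and from -0.0389 to 0.0156 for SPRED1 and from -0.0123 to 0.0227 for SPRED2 in 1-2 KO. Members lower in 1-1 KO numbered 1 in place of 2 in DESeq2, with library size alone, at an adjusted p under 0.01 and between 1 and 2 with libraries left out, since DUSP10 was lost. Members higher in 1-2 KO numbered 2 in place of 4 at an adjusted p under 0.01 and between 2 and 4 with libraries left out, the lowest without WT replicate 3. The replicate numbers did not pair the libraries, since over the 9 pairs with the same number the correlation of their deviations from the line means was between -0.187 and 0.0474. With the replicate number as a block, the members called stayed at 6 higher and 2 lower in 1-1 KO, 4 and 3 in 1-2 KO and 3 and 6 between the knockouts, against 5443 and 5153, 4642 and 4344, and 5519 and 5404 of all tested genes. Scaling by library size alone shifted the median of all genes by 0.05 in 1-1 KO and 0.06 in 1-2 KO. At these depths DUSP2 was the only member limited by its counts.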

Other observations

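The kinases on which DUSP1, DUSP10 and DUSP16 also act, p38 and JNK with their upstream kinases, were all tested, 10 genes in all. In 1-1 KO 4 were higher and 4 lower (median log2 fold change -0.06), and in 1-2 KO 3 were higher and 3 lower (median -0.05). That is 80% and 60% of them, against 63.4% and 54.4% of all tested genes. MAPK9, which encodes JNK2, was 1.74-fold below WT in 1-1 KO and 1.21-fold above it in 1-2 KO (adjusted p = 2.59e-09 and 1.27e-04 in edgeR). MAPK13, a p38 kinase, rose 2.39-fold in 1-1 KO (adjusted p = 6.54e-07), and MAPK8, which encodes JNK1, fell 1.52-fold in 1-2 KO (adjusted p = 1.25e-08), where the genes around it were lower as well and the call was lost relative to them (adjusted p = 0.0551).

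Of 10 transcription factors known to act on ERK-responsive promoters, 4 were higher and 5 lower in 1-1 KO, and 4 higher and 3 lower in 1-2 KO. That is 90% and 70% of them, against 63.4% and 54.4% of all tested genes. For ETS1 the WT libraries held 59 to 98 counts, with at most 3 in 1-1 KO and between 544 and 679 in 1-2 KO, 6.54-fold higher than in WT (adjusted p = 8.47e-10 in edgeR). SRF, which binds the CArG box, fell 1.64-fold in 1-1 KO (adjusted p = 5.76e-08). CIC, a repressor of DUSP6, SPRY4 and ETV genes that ERK inactivates, was raised 1.25-fold in 1-1 KO and 1.42-fold in 1-2 KO (adjusted p = 1.03e-04 and 1.89e-06). Its call in 1-1 KO was lost relative to the neighbouring genes (adjusted p = 0.129).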
